A study of Bos grunniens with 9 samples.

Results

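Ribosome footprints of yak (Bos grunniens) ovaries in estrus were compared with those of ovaries in anestrus, gene by gene. The comparison took the 3 estrus and the 3 anestrus libraries, which are 6 of the 9 libraries of the series, and tested 13816 genes that had enough counts. Per the labels, the estrus ovaries were collected in August and the anestrus ovaries in April, all from adult yaks aged 6 years. No treatment, allele or transgene is named in the labels. The ovary on one side was taken, described as ipsilateral, and frozen after euthanasia. The labels speak of 3 yaks across the stages and of 3 biological replicates. They do not say which animal each library came from, so the libraries of a stage may come from different animals or be repeat samples of 1. Every SD (n = 3) and p-value below therefore measures the spread between these samples, which may lie within 1 animal. Month and stage change together and cannot be told apart.

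Yaks breed seasonally. In anestrus the ovary holds follicles that grow and regress without ovulating. In estrus a dominant follicle makes estradiol in its granulosa cells from androgens of the theca cells and then ovulates. In ribosome profiling, RNase digests mRNA except where a ribosome covers it, and the covered stretches are sequenced. A footprint count follows both the amount of an mRNA and how heavily it is translated, and no RNA-seq of these ovaries was used, so the contributions cannot be told apart.

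The estrus libraries held 6107178, 11074729 and 6078238 counts and the anestrus libraries 15421302, 28937420 and 11996151. Every anestrus library was deeper than every estrus library, so depth moved with stage. Anestrus replicate 2 stood apart on the first principal component, which carried 34.4% of the variance, and estrus replicates 2 and 3 lay at opposite ends of the second (26.5%). Of the genes at 20 CPM or more in anestrus replicate 2 (CPM, counts scaled by library size with TMM factors), 66 of 6410 stood at over 4 times the next highest library, against 0 to 4 genes in each of the other libraries. Values without this library are given beside the results that it moved most. The tissue carried the marks of ovarian stroma and follicle. On the authors' FPKM scale, which corrects for gene length, the matrix protein SPARC ranked first in both stages, at 21726 ± 2893 FPKM in estrus and 19864 ± 2194 FPKM in anestrus, followed by collagen COL1A1 (SD, n = 3 each). All 17 granulosa and all 11 theca markers on the lists passed the filter on low counts. So did all 15 endothelial, 13 smooth muscle and 16 macrophage and myeloid markers, so passing is not particular to follicle cells. Of 20 matched oocyte markers, 4 passed and 5 had no count in any of the 6 libraries.

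No gene passed the main test. edgeR's quasi-likelihood test called 0 of 13816 genes at an adjusted p under 0.05 (0% of those tested), with a smallest adjusted p of 0.623 for a gene with the symbol RPL23A. At an unadjusted p under 0.05, 390 genes were higher in estrus (2.82%) and 463 lower (3.35%), 853 in all (6.17%). With every library thinned to the depth of the shallowest, 0 genes were called, and 372 higher and 448 lower had an unadjusted p under 0.05. The 3 estrus libraries lay above all 3 anestrus libraries for 740 genes (5.36%) and below them for 888 (6.43%). DESeq2 on the same counts called 33 of 13776 genes, 17 higher in estrus (0.123%) and 16 lower (0.116%). A likelihood ratio test in edgeR called 23 genes, 10 higher (0.0724%) and 13 lower (0.0941%). The authors' deposited table lists 31 genes at its FDR under 0.05, 16 higher (0.0894%) and 15 lower (0.0839%). It shares 28 with DESeq2, which is 84.8% of the DESeq2 calls and 90.3% of the deposited ones. The likelihood ratio test and DESeq2 shared 20 calls, and all 3 sources shared 18.

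The DESeq2 calls moved with single libraries. Without estrus replicate 1 the count was 7, all of them lower in estrus, and without estrus replicate 3 it was 267. Without anestrus replicate 1 it was 206, of which 169 were higher in estrus, and without anestrus replicate 2 it was 21. The counts without estrus replicate 2 and without anestrus replicate 3 were 45 and 55. Of the 33 calls, 2 remained in all 6 of these fits, that of RPL23A among them. Below, a gene is said to be called where DESeq2 called it with all 6 libraries. In the simulation described with the processing, DESeq2 made 32 false calls and edgeR's quasi-likelihood test 6. The edgeR adjusted p was at least 0.738 for every tested gene but RPL23A and an IGLV2-14 identifier (0.703). For each called gene described below, the highest adjusted p over the alternatives was 0.983.

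**Figure D1:**
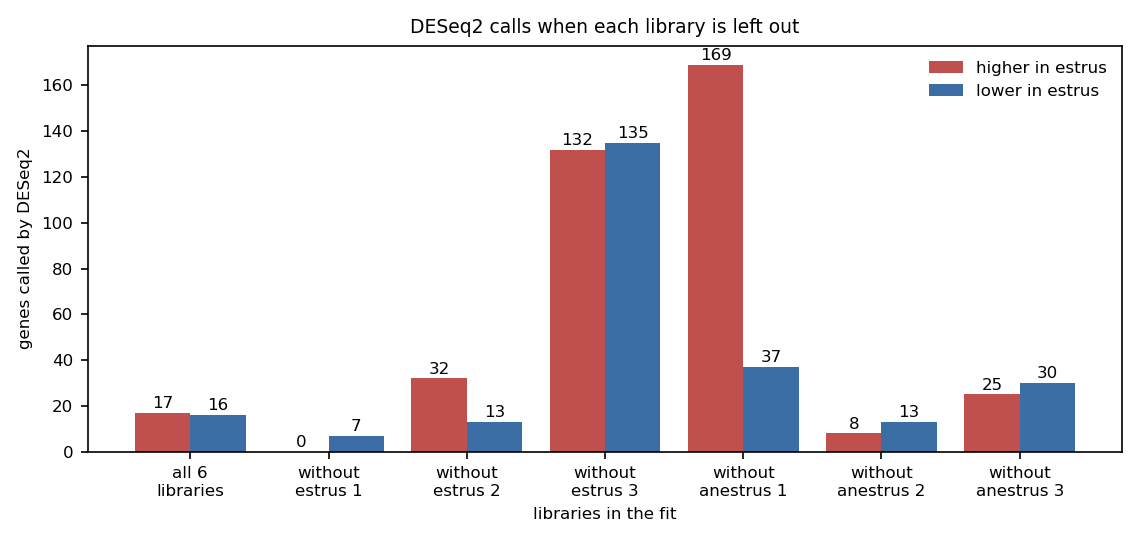
Bars give the number of genes called by DESeq2 (vertical axis) higher and lower in estrus, with all 6 libraries and with each library left out. The counts run from 7 genes without estrus replicate 1 to 267 without estrus replicate 3, against 33 with all libraries.

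Most antibody genes had lower levels in estrus ovaries, and DESeq2 called 3 of them. Of the 31 tested genes of the immunoglobulin list, 30 had negative log2 fold changes, against 51% of all genes tested. Lower at an unadjusted p under 0.05 were 10 of them, against 3.35% of all genes tested. The median was -1.11 on the log2 scale, against -0.01 over all genes tested, and ran from -1.51 without estrus replicate 2 to -0.73 without estrus replicate 3. The pattern that built this list also took in IGHMBP2, a helicase and no antibody gene, at a log2 fold change of -0.32. The summed level of the list was 5076, 4980 and 952 CPM in estrus replicates 1 to 3, against 15358, 5540 and 9486 CPM in anestrus replicates 1 to 3. The sums did not overlap, but estrus replicates 1 and 2 lay close to anestrus replicate 2, and estrus replicate 3 was the lowest of all. In a whole ovary, fewer antibody-forming cells and less antibody mRNA per cell cannot be told apart.

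The heavy chain variable segment IGHV4-39 (ENSBTAG00000048048) had 12.6, 10.6 and 18.1 CPM in estrus, against 69.7, 32.3 and 53.6 CPM in anestrus. The stages did not overlap, and the level was 3.79-fold lower in estrus (log2 fold change -1.92 ± 0.34 SE; DESeq2 adjusted p = 0.00106, 2.29e-06 to 0.983 over the alternatives). A lambda chain variable segment, IGLV2-14 (ENSBTAG00000054090), had 5.30, 21 and 5.58 CPM in estrus, against 93.0, 48.7 and 64.0 CPM in anestrus, 6.32-fold lower (-2.66 ± 0.55; DESeq2 adjusted p = 0.00106, 4.06e-15 to 0.983). A further IGLV2-14 identifier (ENSBTAG00000049563) had 2 counts in the estrus libraries together and 227 in the anestrus libraries, a rate 48.7 times as high in anestrus (95% exact binomial interval 13.3 to 405, counting error only; DESeq2 adjusted p = 0.00218, 2.09e-06 to 0.983). These symbols rest on similarity in the deposited annotation, and 4 identifiers with counts carry the symbol IGHV4-39, of which this one held 7.16% of the anestrus level. How similar these segments are was not measured, and how the authors' counting split reads among them is uncertain. IGHG2, which encodes the constant region of an IgG heavy chain, ranked 28th by FPKM in estrus, at 1974 ± 1274 FPKM, and 6th in anestrus, at 5840 ± 3444 FPKM (SD, n = 3 each; log2 fold change of its counts -1.58 ± 0.66).

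Genes that B cells and plasma cells use to make antibody lay on the same side. Of the 10 tested markers of these cells, 9 were negative, against 51% of all genes tested, with a median of -1.28. Lower at an unadjusted p under 0.05 were 6 of them, against 3.35% of all genes tested. POU2AF1, a coactivator of immunoglobulin transcription, was called and had 2 counts in all in estrus and 169 in anestrus, a rate 36.3 times as high in anestrus (95% exact binomial interval 9.89 to 302, counting error only; DESeq2 adjusted p = 0.013, 1.01e-05 to 0.983 over the alternatives). MZB1, a chaperone of antibody assembly in plasma cells, had 14.2, 12 and 2.46 CPM in estrus, against 56.5, 25.1 and 33.6 CPM in anestrus (-1.99 ± 0.57), and did not pass in DESeq2. Its stages did not overlap. CD79B, which signals for the B cell receptor (-1.46 ± 0.59), FCRLA, an Fc receptor-like protein of B cells (-1.86 ± 0.63), and DERL3, which clears misfolded secretory proteins (-1.59 ± 0.59), showed no overlap either. CD79A, the signalling partner of CD79B, had 8.17, 5.02 and 1.81 CPM in estrus, against 6.92, 4.02 and 5.76 CPM in anestrus, and the stages overlapped (-0.15 ± 0.52). JCHAIN, which joins secreted antibody chains, had 87.9, 46.5 and 8.21 CPM in estrus, against 129, 64.2 and 112 CPM in anestrus, and the stages overlapped. The list median ran from -2.05 without estrus replicate 1 to -0.66 without estrus replicate 3. T and NK cell markers had a median of -0.13, with 12 of 17 negative, and macrophage and myeloid markers one of 0.09, with 9 of 16 positive. The macrophage median changed sign without single libraries, between -0.09 and 0.31.

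**Figure D2:**
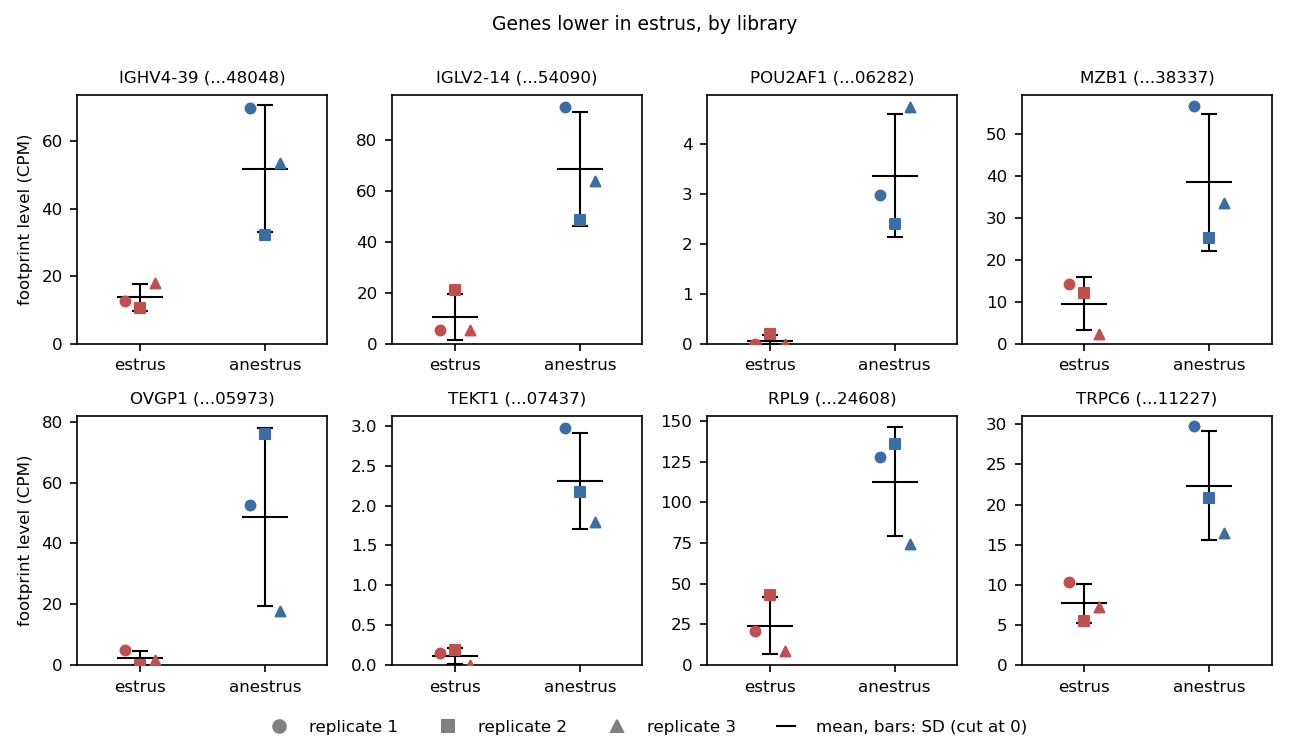
Points give the footprint level in CPM (linear axis from 0) of 8 genes lower in estrus, by library, with the mean and SD of the 3 libraries of a stage. In every panel the 3 estrus libraries lie below the 3 anestrus libraries.

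OVGP1 and several genes of motile cilia had few footprints in estrus. OVGP1, the oviduct-specific glycoprotein, had 4.99, 0 and 1.48 CPM in estrus, against 52.6, 75.9 and 17.7 CPM in anestrus. The stages did not overlap (log2 fold change -4.58 ± 1.03 SE), and DESeq2 did not call it (adjusted p = 0.327, 5.49e-05 to 0.997 over the alternatives). TEKT1, a tektin of the ciliary microtubules, was called (DESeq2 adjusted p = 0.047, 8.17e-04 to 0.983 over the alternatives) and had 3 counts in estrus and 125 in anestrus, a rate 17.9 times as high in anestrus (95% exact binomial interval 5.98 to 87.9). It lost the call in every fit that left out a library. FOXJ1, the transcription factor that drives motile cilia, had no count in the 3 estrus libraries and 2.39, 3.40 and 0.544 CPM in anestrus. Against a floor of 3 counts per library it was at least 5.15-fold lower in estrus, or at least 3.58-fold without anestrus replicate 2. It was too low for the edgeR test and is among the genes of the authors' deposited table at its FDR under 0.05.

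A list of 36 genes of motile cilia was put together after these values were seen and holds TEKT1, FOXJ1 and ZMYND10, so its counts describe what prompted it and support nothing. Of its 35 matched genes, 29 had a higher mean in anestrus, and 5 with counts in anestrus had none in any estrus library. Of the 21 that were tested, 3 lay lower in estrus without overlap, against 6.43% of all genes tested. The summed level was 57.3, 52.5 and 48.7 CPM in estrus, against 106, 94.8 and 58.4 CPM in anestrus replicates 1 to 3, so anestrus replicate 3 lay near the estrus libraries. The dynein arm assembly factor ZMYND10 had 0.757, 0.379 and 0.328 CPM in estrus, against 4.85, 4.02 and 0.856 CPM in anestrus. Most of these levels are near the floor of 3 counts, which was 0.491, 0.271 and 0.494 CPM in the estrus libraries by total counts. The fixed list of surface and oviduct epithelium markers did not lie to one side, with 6 of 11 negative and a median of -0.24. How much epithelium from outside the ovary each sample held was not tested.

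Some lower calls concerned single copies of genes that have several identifiers. A RPL23A identifier (ENSBTAG00000032432), annotated as like a large-subunit ribosomal protein, had no count in estrus and 6.73, 8.73 and 4.52 CPM in anestrus, at least 16.3-fold lower in estrus (DESeq2 adjusted p = 4.65e-06, 1.41e-12 to 0.983 over the alternatives). A RPL10A identifier (ENSBTAG00000027213) had no count in estrus and 14.8, 3.32 and 2.65 CPM in anestrus, at least 16.9-fold lower, or at least 7.28-fold without anestrus replicate 1 (DESeq2 adjusted p = 5.50e-05, 2.09e-06 to 0.983). Without anestrus replicate 2 the RPL10A call was lost (DESeq2 adjusted p = 0.185). These identifiers held 2.96% and 2.34% of the anestrus level of their symbol, and other identifiers of both symbols carried most of the footprints. A RPL9 identifier (ENSBTAG00000024608), with 43.4% of its symbol, had 20.9, 42.9 and 8.54 CPM in estrus, against 128, 136 and 74.3 CPM in anestrus (-2.21 ± 0.53; DESeq2 adjusted p = 0.0129, 4.30e-06 to 0.983). The stages did not overlap for any of the 3, but reads may have been divided between identifiers of one symbol, so these levels are uncertain.

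The same caution holds for an identifier of RRAGA, a GTPase that relays amino acid supply to mTORC1. The RRAGA identifier (ENSBTAG00000038064) had 2.72, 3.50 and 5.09 CPM in estrus, against 10, 17.0 and 11.9 CPM in anestrus (-1.79 ± 0.35; DESeq2 adjusted p = 0.013, 0.00136 to 0.983), with 10.8% of its symbol. With identifiers of one symbol summed, the log2 fold change of RRAGA was 0.0441.

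Genes of cytosolic ribosomal proteins, read at the identifier with most counts, had mostly lower levels in estrus. Of 79 tested, 78 were negative, against 51% of all genes tested, with a median of -0.53. Lower at an unadjusted p under 0.05 were 9 of them, against 3.35% of all genes tested. RPS13 had 67.5, 69.1 and 55.6 CPM in estrus, against 113, 144 and 73.4 CPM in anestrus, without overlap (-0.78 ± 0.27). RPS20 had 47.2, 35.4 and 46.5 CPM in estrus, against 94.3, 129 and 42.4 CPM in anestrus, with overlap. The shift was largest against anestrus replicate 2. Without that library the median was -0.25 and 0 genes had an unadjusted p under 0.05, and without anestrus replicate 3 the median was -0.72 and 42 had. Translation factors, which carry the ribosome through initiation and elongation, had a median of -0.06. Without overlap, 10 of 61 lay lower in estrus and 1 higher, against 6.43% and 5.36% of all genes tested. Among the 10 were EEF1G (-0.82 ± 0.34) and EEF1B2 (-0.78 ± 0.32), subunits of the elongation factor that reloads EEF1A. EIF4EBP2, which holds back cap-dependent initiation (-1.07 ± 0.33), was another. Without anestrus replicate 2 the log2 fold changes were -0.35 for EEF1G, -0.37 for EEF1B2 and -1.09 for EIF4EBP2, and the list median was 0.08. Mitochondrial ribosomal proteins had a median of 0.08, with 43 of 75 positive, and one of -0.08 without estrus replicate 2.

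Other lower calls were single genes of varied function. SAA1, an acute phase protein, had 8.32, 11.2 and 17.2 CPM in estrus, against 54.1, 27.6 and 28.9 CPM in anestrus (DESeq2 adjusted p = 0.0374, 0.00188 to 0.983), at an identifier with 77.4% of its symbol. TRPC6, a cation channel gated by diacylglycerol, had 10.3, 5.49 and 7.22 CPM in estrus, against 29.8, 20.8 and 16.5 CPM in anestrus (DESeq2 adjusted p = 0.0283, 0.0187 to 0.983). ABCG1, which exports cholesterol to lipoproteins, had 13.2, 13.7 and 22.2 CPM in estrus, against 47.5, 29.2 and 48.1 CPM in anestrus (DESeq2 adjusted p = 0.0442, 0.00113 to 0.983). None of these 3 overlapped between the stages, and they were 3.02, 2.93 and 2.55-fold lower. MUSTN1, a nuclear protein of muscle and skeletal tissue, was called as well, at 15.4 ± 3.58 CPM in estrus and 39.7 ± 13.3 CPM in anestrus (SD, n = 3 each; DESeq2 adjusted p = 0.0438, 0.00565 to 0.983). Of the 6 fits with 1 library left out, 3 kept the call of TRPC6. Those of SAA1, ABCG1 and MUSTN1 were kept in 2 each. The matrix glycoprotein SMOC1 (-1.20 ± 0.28) and the GABA-A receptor subunit GABRB1 (-0.88 ± 0.21) did not overlap between stages and were not called.

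In both remaining lower calls the anestrus libraries differed widely among themselves. SOCS3, an inhibitor of cytokine signalling, had 2.12, 2.18 and 5.25 CPM in estrus, against 5.95, 63.7 and 14.2 CPM in anestrus, and its log2 fold change was -3.17 with all libraries and -1.68 without anestrus replicate 2. ANXA8L1, an annexin, had 2.27, 0.284 and 1.15 CPM in estrus, against 16.0, 20.4 and 1.87 CPM in anestrus. It was the 1 called gene whose stages overlapped. Of the 6 fits with 1 library left out, 3 kept the call of SOCS3 and 2 that of ANXA8L1.

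Genes of growth factor signalling and matrix also had small unadjusted p-values on the lower side, without a call. Both members of the insulin-like growth factor list at an unadjusted p under 0.05 bear on 1 protease. PAPPA, which cleaves an IGF-binding protein, had 2.88, 2.08 and 1.15 CPM in estrus, against 4.59, 12 and 3.89 CPM in anestrus, with a log2 fold change of -1.75 in all and -1.05 without anestrus replicate 2. STC2, which inhibits it, had 3.18, 2.08 and 2.79 CPM in estrus, against 7.05, 10.7 and 5.45 CPM in anestrus. Neither overlapped between stages, while the list as a whole had a median of -0.16, with 11 of 16 negative. In the TGF-beta family 3 of 30 genes had an unadjusted p under 0.05, all lower, against 3.35% lower over all genes tested. Among them were the ligand TGFB1 (-0.98 ± 0.31) and the receptor ACVR1 (-0.64 ± 0.23), and the list median was -0.10. Without anestrus replicate 2 the log2 fold changes were -0.71 for TGFB1 and -0.47 for ACVR1. In that fit 1 of 31 genes of the family was lower at an unadjusted p under 0.05. Lumican (LUM), an abundant proteoglycan of the stroma, had 1145, 1477 and 998 CPM in estrus, against 1877, 2649 and 1858 CPM in anestrus (-0.82 ± 0.28). PTGFR, the receptor through which prostaglandin F regresses the corpus luteum, had 14.1, 10 and 9.36 CPM in estrus, against 25.7, 14.4 and 26.2 CPM in anestrus. It was the 1 luteal marker of 11 at an unadjusted p under 0.05, and 8 of the 11 were positive. Of 23 immediate early genes 16 were negative, with a median of -0.33 that ran from -0.69 without estrus replicate 3 to 0.24 without anestrus replicate 3. Without estrus replicate 1 it was -0.02. MYC, one of them and a driver of growth, had 71.4, 111 and 86.7 CPM in estrus, against 148, 172 and 120 CPM in anestrus, without overlap.

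Genes of ovulation and cumulus expansion showed how far 1 library can carry a list. With all libraries 10 of the 13 tested were negative, against 51% of all genes tested, with a median of -0.87. Lower at an unadjusted p under 0.05 were 4 of them, against 3.35% of all genes tested. PTX3, which ties the cumulus matrix together, had 65.2, 39.2 and 52.2 CPM in estrus, against 56.3, 3374 and 51.7 CPM in anestrus replicates 1 to 3. TNFAIP6, which links hyaluronan in that matrix, had 6.21, 1.42 and 2.95 CPM in estrus, against 15.2, 183 and 4.44 CPM in anestrus. The proteinase ADAMTS4, of the matrix proteinase list and not of this one, had 97.6, 35.5 and 136 CPM in estrus, against 75.2, 6284 and 117 CPM in anestrus. All 3 overlapped between stages. Without anestrus replicate 2 their log2 fold changes were -0.05, -1.50 and -0.11, and the list median was -0.05 with 0 genes at an unadjusted p under 0.05. EREG, IL6 and HAS2, untested for low counts, stood at 10.9, 38.4 and 17.9 CPM in anestrus replicate 2 and at 1.06 CPM or less in each of the other 5 libraries.

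On the higher side, most calls were identifiers annotated after retroelements, mobile sequences copied through RNA by a reverse transcriptase. The deposited table describes 243 identifiers as endonuclease-reverse transcriptase, of which 228 were tested. Of these, 220 had positive log2 fold changes, against 49% of all genes tested, with a median of 1.17. Higher at an unadjusted p under 0.05 were 89 of the 228, against 2.82% of all genes tested. DESeq2 called 11 of the described identifiers higher in estrus, of its 17 higher calls, and 0 lower. By symbol, 93 of 97 tested pol identifiers, 69 of 73 named F52C9.6, 34 of 35 named CFDP2, 16 of 18 named Pol and 5 of 9 named L1RE1 were positive. Identifiers of one symbol or description may be similar copies, which was not measured here. Their tests may then not be independent, and which copies the footprints came from is uncertain.

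The identifier of F52C9.6 with the smallest unadjusted p (ENSBTAG00000052603) had 131, 65.2 and 135 CPM in estrus, against 31.4, 15 and 34.4 CPM in anestrus. The stages did not overlap, and the level was 4.09-fold higher in estrus (2.03 ± 0.39; DESeq2 adjusted p = 0.00106, 5.49e-05 to 0.983 over the alternatives). A pol identifier (ENSBTAG00000052837) had 9.84, 9.27 and 10 CPM in estrus, against 3.56, 1.93 and 1.56 CPM in anestrus, 4.12-fold higher (2.04 ± 0.39; DESeq2 adjusted p = 0.00218, 4.81e-06 to 0.983). A CFDP2 identifier (ENSBTAG00000049776) had 10.6, 1.51 and 5.75 CPM in estrus, against 0.776, 0.618 and 0.389 CPM in anestrus (3.28 ± 0.73; DESeq2 adjusted p = 0.00647, 4.30e-06 to 0.983). The summed level over the described identifiers was 6077, 3389 and 6415 CPM in estrus, against 4676, 1042 and 1854 CPM in anestrus. Anestrus replicate 1 thus lay above estrus replicate 2, and the sums overlapped. For the list of retroelement-like symbols, of which 218 of 234 tested members were positive, the median was 1.13. Leaving out anestrus replicate 1 gave 1.89 and leaving out anestrus replicate 2 gave 0.80, which held the highest and the lowest anestrus sum.

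**Figure D3:**
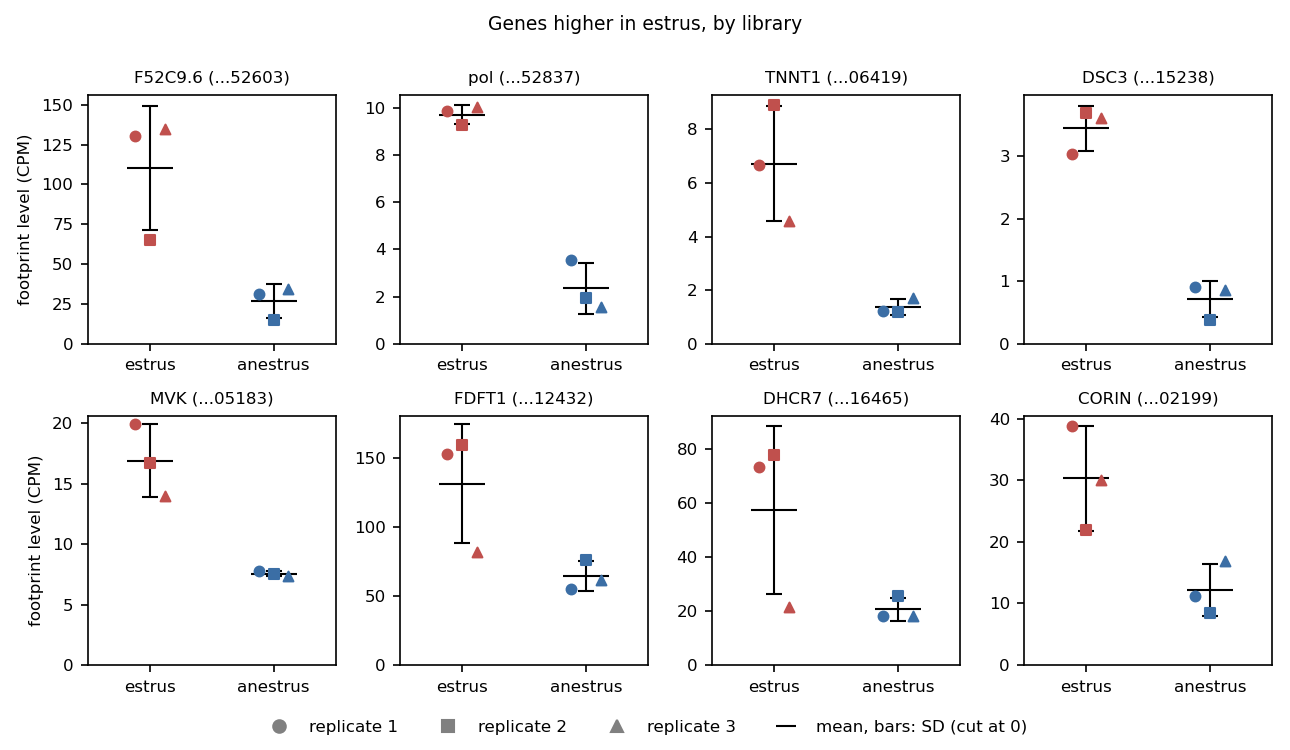
Points give the footprint level in CPM (linear axis from 0) of 8 genes higher in estrus, by library, with the mean and SD of the 3 libraries of a stage. All panels but that of DHCR7, where estrus replicate 3 lies at the anestrus level, show no overlap.

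Only 3 higher calls had another symbol. TNNT1, the troponin T of slow muscle, had 6.66, 8.90 and 4.60 CPM in estrus, against 1.23, 1.20 and 1.71 CPM in anestrus (2.29 ± 0.41; DESeq2 adjusted p = 0.00169, 1.98e-04 to 0.983 over the alternatives). DSC3, a cadherin of desmosomes, had 3.03, 3.69 and 3.61 CPM in estrus, against 0.905, 0.386 and 0.856 CPM in anestrus (2.28 ± 0.51; DESeq2 adjusted p = 0.0438, 0.0178 to 0.983). MVK, which phosphorylates mevalonate early in cholesterol synthesis, had 20, 16.8 and 14 CPM in estrus, against 7.76, 7.5 and 7.4 CPM in anestrus (1.16 ± 0.24; DESeq2 adjusted p = 0.0374, 0.0037 to 0.983). The stages did not overlap for any of the 3. The summed level of the skeletal muscle markers, TNNT1 included, was 45.2, 145 and 31.8 CPM in estrus, against 29.5, 17.1 and 75.4 CPM in anestrus, and overlapped. CORIN, the protease that activates atrial natriuretic peptide (1.32 ± 0.33), EPHA3, a receptor for ephrins (1.87 ± 0.46), ALPK1, a kinase that senses bacterial sugars (1.45 ± 0.34), and ZFYVE19, which acts in the last step of cell division (1.35 ± 0.32), were the other genes named for a small unadjusted p. None of these 4 was called, and none overlapped between stages.

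MVK belongs to cholesterol synthesis, the pathway that supplies the precursor of all steroid hormones. Of 24 tested genes 22 were positive, against 49% of all genes tested, with a median of 0.70. Higher at an unadjusted p under 0.05 were 11 of them, against 2.82% of all genes tested, and MVK alone was called. That number ran from 5 without estrus replicate 1 to 17 without estrus replicate 3. FDFT1, which makes squalene, had 153, 160 and 82.2 CPM in estrus, against 55.1, 76.6 and 61.7 CPM in anestrus (1.03 ± 0.29), without overlap. NSDHL, which removes methyl groups from the sterol ring, had 24.8, 26.2 and 17.2 CPM in estrus, against 9.25, 14.8 and 9.03 CPM in anestrus, also without overlap. DHCR7, the last enzyme before cholesterol, had 73.3, 77.8 and 21.7 CPM in estrus, against 18.2, 25.7 and 18.2 CPM in anestrus. The score of the list in a library, which averages over its members how far log2 CPM lies from that gene's own 6-library average, was 0.65, 0.71 and -0.34 in estrus, against -0.48, 0.07 and -0.60 in anestrus. Estrus replicates 1 and 2 were the highest, and estrus replicate 3 lay among the anestrus libraries. HSD17B7, which reduces a sterol ketone in the pathway, had a log2 fold change of -0.44. The list median ran from 0.41 without estrus replicate 2 to 1.14 without anestrus replicate 2.

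Granulosa markers as a list scored highest in estrus replicates 1 and 2, without a gene at an unadjusted p under 0.05. Of 17 tested, 16 were positive, against 49% of all genes tested, with a median of 0.93. FSHR, the receptor for follicle-stimulating hormone, had 27.5, 38.1 and 5.75 CPM in estrus, against 14, 0.889 and 8.95 CPM in anestrus. SERPINE2, a protease inhibitor of granulosa cells, had 4100.5, 4259 and 1050 CPM in estrus, against 2484, 895 and 1359 CPM in anestrus. Both overlapped. The list score was 1.13, 0.87 and -0.43 in estrus, against 0.54, -1.80 and -0.31 in anestrus, so estrus replicate 3 and anestrus replicate 3 were alike and anestrus replicate 2 was the lowest. Leaving out anestrus replicate 2 gave a median of 0.65, and leaving out anestrus replicate 1 gave 1.44. Theca markers had a median of 0.36, with 8 of 11 positive, and one of 0.14 without anestrus replicate 2. LHCGR, the receptor for luteinizing hormone, had 62.7, 55.1 and 10.7 CPM in estrus, against 12.7, 4.02 and 24.7 CPM in anestrus, and INSL3, a theca hormone, 815, 927 and 159 CPM in estrus, against 59.9, 105 and 496 CPM in anestrus. The follicle content of each sample was not measured.

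**Figure D4:**
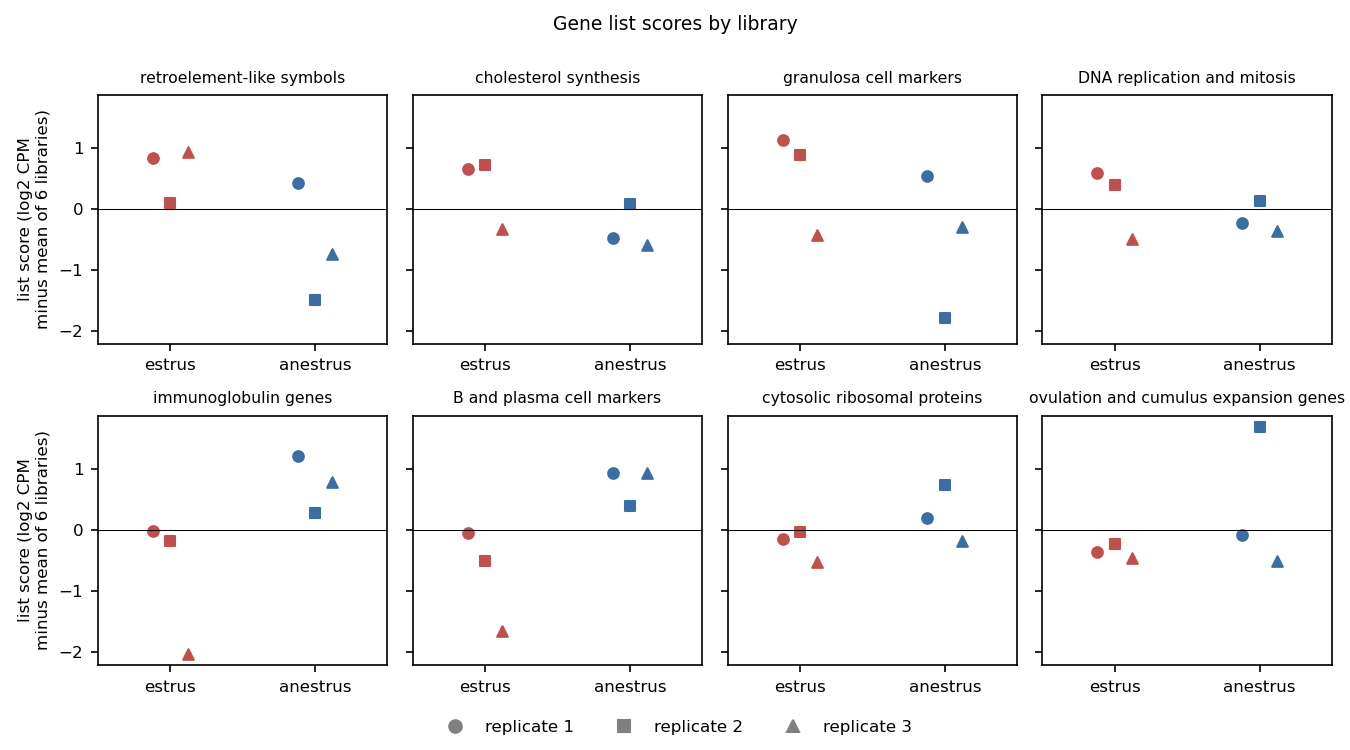
Points give the score of 8 gene lists by library, as the average distance in log2 CPM of the tested members from their own 6-library averages. B cell and immunoglobulin scores lie lower in all 3 estrus libraries, whereas cholesterol, granulosa and replication scores are high in estrus replicates 1 and 2 but not 3.

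Genes of DNA replication and mitosis and histone genes were mostly positive. Of 38 tested replication and mitosis genes 33 were positive, against 49% of all genes tested, with a median of 0.43. Higher at an unadjusted p under 0.05 were 4 of them, against 2.82% of all genes tested. TK1, which makes thymidine phosphate for DNA synthesis, had 33.0, 26.8 and 20.8 CPM in estrus, against 17.7, 16.3 and 15.6 CPM in anestrus, without overlap. CDC6, which loads the replicative helicase, had 8.02, 7.67 and 4.43 CPM in estrus, against 2.97, 3.44 and 4.20 CPM in anestrus, also without overlap. Histone genes had a median of 0.43, with 44 of 53 positive. The histone H4 gene H4C12 had 311, 274 and 64.0 CPM in estrus, against 103, 25 and 45.0 CPM in anestrus, and the stages overlapped. Without estrus replicate 3 the numbers at an unadjusted p under 0.05 were 17 replication genes and 29 histone genes, and without estrus replicate 1 they were 0 and 0. Among heat shock genes, DNAJB1, a partner of the HSP70 chaperones, had 90.7, 89.4 and 207 CPM in estrus, against 35.9, 41.8 and 67.9 CPM in anestrus (1.41 ± 0.40), while the list had a median of 0.09, with 12 of 17 positive.

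Many lists lay close to the median of all genes, and single libraries moved several of them to either side of it. Collagen chains had 16 of 32 positive members and a median of -0.00, although the cartilage-type COL2A1 (-1.94 ± 0.69) and COL28A1 (-1.86 ± 0.49) were at an unadjusted p under 0.05. The collagen median ran from -0.20 to 0.16 with 1 library left out. Smooth muscle markers had a median of 0.02, which was 0.27 without estrus replicate 1, where all 13 were positive, and -0.30 without estrus replicate 3. With 1 library left out, the complement median of 0.02 ran from -0.13 to 0.24, the hypoxia response median of -0.02 from -0.19 to 0.06, and the circadian clock median of -0.02 from -0.20 to 0.14. The proteasome median of 0.07 ran from -0.04 to 0.23, and that of nuclear-encoded respiratory chain genes, 0.10, from -0.05 to 0.27. Endothelial markers were negative in 13 of 15 with a median of -0.26, and without anestrus replicate 2 in 9 of 15 with one of -0.03. Matrix proteinases and inhibitors were negative in 23 of 31 with a median of -0.30, and without anestrus replicate 2 in 18 of 31 with one of -0.13. Stromal fibroblast markers were negative in 10 of 12 with a median of -0.15, and without estrus replicate 1 in 6 of 12 with one of 0.00. Interferon-stimulated genes were positive in 22 of 30, with a median of 0.14 that ran from 0.10 to 0.31 with 1 library left out. Without overlap, 5 of them lay higher in estrus and 0 lower, against 5.36% and 6.43% of all genes tested. Genes of steroid hormone synthesis had a median of 0.27, with 17 of 24 positive, and it ran from 0.17 to 0.35 with 1 library left out.

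**Figure D5:**
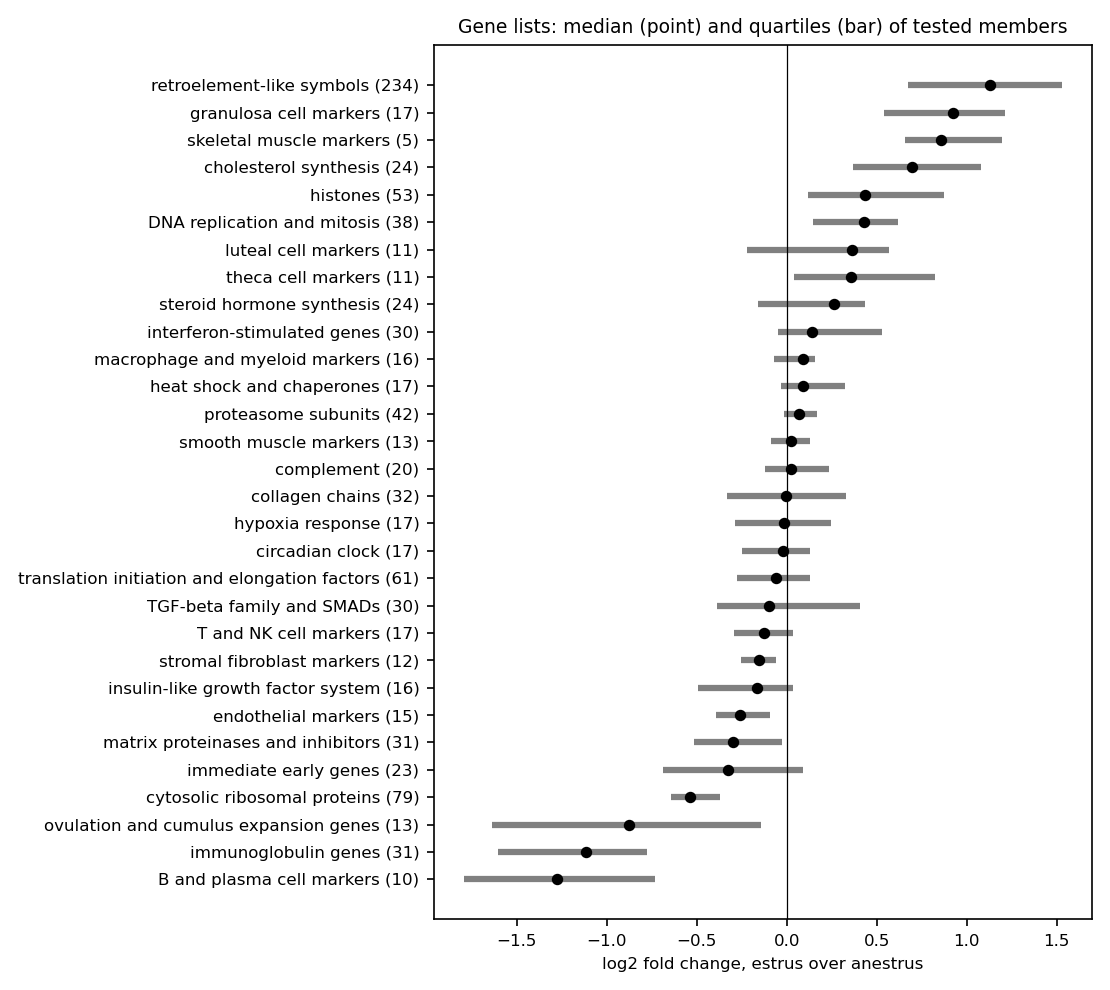
Points give the median and bars the quartiles of log2 fold change (estrus over anestrus) over the tested members of 30 gene lists, with the number of members in brackets. The medians run from -1.28 for B and plasma cell markers to 1.13 for retroelement-like symbols.

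The KEGG pathways of the deposited annotation, which share many genes, were described by their medians. Of 306 pathways with 15 to 300 tested genes, 88 had a positive median and 218 a negative one. Steroid biosynthesis was the highest, with 14 of 16 genes positive and a median of 0.61, followed by mismatch repair (20 of 22, 0.32) and butanoate metabolism (15 of 18, 0.29). The lowest were the pathway of coronavirus disease, with 188 of 248 genes negative and a median of -0.40, pathogenic Escherichia coli infection (25 of 34, -0.39) and the ribosome (135 of 176, -0.39). Fc epsilon receptor signalling (49 of 70, -0.31) and NF-kappa B signalling (83 of 106, -0.29) were also among the 8 lowest.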

How the data were processed

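Ribosome footprints were sequenced from 9 yak ovary libraries, of which 6 enter here. Per the labels, ribosomal RNA was removed with antisense probes and RNase H. Per the submitters' processing notes, the authors aligned reads with Bowtie2 and estimated counts for each gene with RSEM. Neither a version nor a build is given in the sources read here. The estimated counts as deposited were whole numbers. The authors' deposited FPKM values served only for levels between genes. The authors' deposited table also lists a log2 fold change, p-value and FDR per gene, whose test is not stated.

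Of 21652 genes, 3763 had no count in the 6 libraries, and 13816 passed edgeR's filterByExpr. edgeR 4.0.16 (R 4.3.3) fitted stage on TMM-scaled counts with quasi-likelihood F tests (biological coefficient of variation 35.0%) and Benjamini-Hochberg adjustment at 0.05. CPM are TMM-scaled, and log2 CPM for list scores use a prior count of 2. Alternatives were DESeq2 1.42.0, limma 3.58.1 voom with quality weights, all 9 libraries, other scalings and filters, thinning, a replicate block, and leaving out each library. A likelihood ratio test, a robust prior, summed identifiers and DESeq2 with libraries left out were added after the data were seen.

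In a simulation of 13816 genes, with 50 of them altered at each fold size, edgeR recovered 4, 46, 49 and 50 at absolute log2 fold changes of 1, 2, 3 and 4, with 6 false calls, and DESeq2 recovered 17, 48, 49 and 50, with 32 false calls. Counts were drawn independently for each library from each gene's mean and fitted spread, and altered genes had 5 CPM or more. No library was made to stand apart as anestrus replicate 2 did, so these rates need not hold for the real libraries.

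Genes were named by rule: the 14 per direction with the smallest unadjusted p among those that have a symbol, do not overlap between stages and reach a mean of 5 CPM in one of them; genes called by DESeq2 or the deposited table; and up to 4 per list. Others were named after their values were seen. Members and lists were chosen with earlier results of these data known. Counting intervals and floors (3 counts) cover counting error only. A symbol with several identifiers was read at the one with most counts in lists, unless a list was built from symbol patterns. Results of some genes that the rule names are not reported here.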

Additional observations from a re-analysis of the deposited data

How the results depend on the processing

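edgeR's quasi-likelihood test called 0 genes under every alternative run with it, including each library left out, and limma-voom called 0. DESeq2 called 33 genes, and the likelihood ratio test 23. DESeq2 without anestrus replicates 1, 2 and 3 called 206, 21 and 55 genes, and without estrus replicates 1, 2 and 3 it called 7, 45 and 267. At an unadjusted p under 0.05, leaving out libraries in edgeR gave 215 to 776 genes higher in estrus and 277 to 893 lower, against 390 and 463 with all 6, and limma-voom gave 738 and 769. Deviations from the stage mean correlated at 0.179, 0.147 and -0.000253 between same-numbered libraries of the stages. Between differently numbered ones the correlations ran from -0.214 to 0.0428. So few values cannot decide whether replicate numbers pair the libraries. With the replicate number as a block, 535 genes were higher and 505 lower, and 0 were called. The cause of these moves was not tested.

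Of the genes given across alternatives, RRAGA changed sign: with identifiers of one symbol summed it had a log2 fold change of 0.0441, since another identifier holds most of its counts.

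With 3 libraries a stage, changes of 2-fold were mostly missed in the simulated edgeR fits. Month, depth and stage change together. Genes with few counts in the shallower estrus libraries have only bounds.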

Other observations

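Anestrus replicate 2 held a set of genes at levels seen in no other library. SERPINA14, a uterine serpin, stood at 100.7 times the next highest library, which had 1.51 CPM. The ratio was 40.3 for MAP1LC3C, an autophagy protein, 29.8 for GFPT2, which feeds the hexosamine pathway, and 28.2 for XIRP1, an actin-binding protein of striated muscle. These genes were named after their values were seen.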
